A study of Chlamydomonas reinhardtii with 9 samples.

Results

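Cell division in the green alga Chlamydomonas needs a set of genes that copy the chromosomes, hold and condense them, separate them and time these steps. The 99 genes described here come from the study's list of 100 cell division genes, which it took from earlier work on the cell cycle and not from these libraries. RDP3 was left out because it also stands on the study's iron deficiency list, and the list held no tubulin gene. The matrices hold 17893 genes in all, and all 99 members have a row in them.

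Chlamydomonas cells grow for a long time before they divide, and a large cell then goes through several rounds of DNA synthesis and mitosis in quick succession, so that 1 mother cell releases many daughters. Before DNA synthesis, the origin recognition complex, CDC6 and CDT1 load the MCM2 to MCM7 helicase on origins of replication. The GINS proteins and CDC45 help to activate that helicase, DNA polymerases then copy the strands with the sliding clamp PCNA and its RFC loaders, and ribonucleotide reductase (RIR1 and RIR2) supplies the deoxynucleotides. Cyclin-dependent kinases (CDKs) and their cyclins drive these steps, WEE1 restrains them, the retinoblastoma protein MAT3 with E2F1 and DP1 couples cell size to division, cohesin and condensin hold and compact the chromosomes, and the anaphase-promoting complex with its activators CDC20 and CDH1 ends mitosis.

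The data are UMI counts (unique molecular identifiers, each tagging 1 captured transcript) per gene and cell from 9 Chromium 3′ single-cell libraries. Strain CC-5390 (cw15 arg7-8::ARG7 mt+, without a cell wall) was grown in TAP medium, which contains acetate, in constant light, and was moved for about a day to fresh medium with iron (Fe+), without iron (Fe−) or, with iron, without nitrogen (N−). Experiment 1 gave 1 library each of Fe+, Fe− and an equal mixture of these cells (Mix), and experiment 2 gave 1 Fe+, 1 Fe− and 2 N− libraries (R1 and R2) of CC-5390. The walled strain CC-4532 (CW mt−) gave 1 Fe+ and 1 Fe− library in experiment 2. The N− libraries, which the study calls technical duplicates, were summed to 1 sample in the main tests. Some alternatives kept them as separate samples or used only 1 of them. Within an experiment the cultures of a strain came from shared pre-cultures, and the experiments differed in pre-culture schedule and in sequencer, so p-values measure the spread between few libraries, part of which may be technical.

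Libraries held 2064 to 11798 cells and 7576775 to 52436795 UMIs, with medians of 1388 to 5843 UMIs per cell. The members took 3166 to 34905 UMIs per library, and 94 to 99 of them had at least 1 UMI in each library. Any pair of libraries shared at most 40 cell barcodes. The conditions left their marks in the libraries, but not every mark followed the summed level of the members. In CPM (UMIs of a gene scaled to a common library total), the summed level of the 100-gene iron deficiency list was 5851 and 2810 in Fe+, 18035 and 6762 in Fe− and 4336 and 4646 in N−. The nitrogen deficiency list, 118 genes of which were in the matrices, summed to 1595 and 2189 CPM in Fe+, to 4443 and 6385 CPM in Fe− and to 16441 and 15278 CPM in N−. The part of these broader responses in the changes below was not tested. Levels below are CPM of the library total, in the order experiment 1, experiment 2 for the iron libraries, and they were not divided by gene length because 3′ libraries give 1 tag per transcript.

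Summed over the 99 genes, the list stood at 677 and 236 CPM in Fe+, 940 and 619 CPM in Fe−, 1191 and 1269 CPM in N− R1 and R2, 772 CPM in Mix, and 173 CPM in Fe+ and 545 CPM in Fe− of CC-4532. Every starved library thus stood above the Fe+ library of its own strain and experiment. The Fe+ libraries of CC-5390 differed from each other by more than Fe+ and Fe− did within an experiment, and the Fe+ library of experiment 1 lay above the Fe− library of experiment 2. After scaling by TMM factors (trimmed mean of M-values, which set most genes at no change), the sums were 553 and 301 in Fe+, 674 and 750 in Fe−, 786 and 684 in N−, and 398 and 920 in Fe+ and Fe− of CC-4532. A rise of the summed level in a bulk sum cannot tell more cells with these transcripts from more transcripts per cell, and the single-cell counts are taken up after the comparisons.

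The composition of the sum differed between the libraries. In experiment 1, 263 CPM were gained from Fe+ to Fe−, of which RIR2 brought 68.4 and RIR1 37.9, and TOP2, RFA1 and MCM2 followed. In experiment 2 the gain was 383 CPM, and it was led by the D-type cyclin CYCD3 (82.1), by MCM5 (32.0), by CYCD2 (31.1), by CKS1 (26.2) and by WEE1 (26.1). Against the Fe+ library of experiment 2, the N− libraries on average gained 997 CPM, with CYCD3 (171), CKS1 (107), CYCD2 (67.3), MCM5 (63.2) and CDH1 (60.7) at the head. In CC-4532 the gain was 372 CPM, with RIR2 (97.6, or 26.3%) and CYCD3 (70.8, or 19.0%) at the head. CKS1, a small CDK-binding protein, is named here because of these values. The 4 D-type cyclins took 3.26% of the list's UMIs in Fe+ and 4.19% in Fe− of experiment 1, but 10.4% in Fe+ and 24.3% in Fe− of experiment 2, 22.7% and 22.6% in N−, and 18.1% and 24.8% in Fe+ and Fe− of CC-4532.

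**Figure D1:**
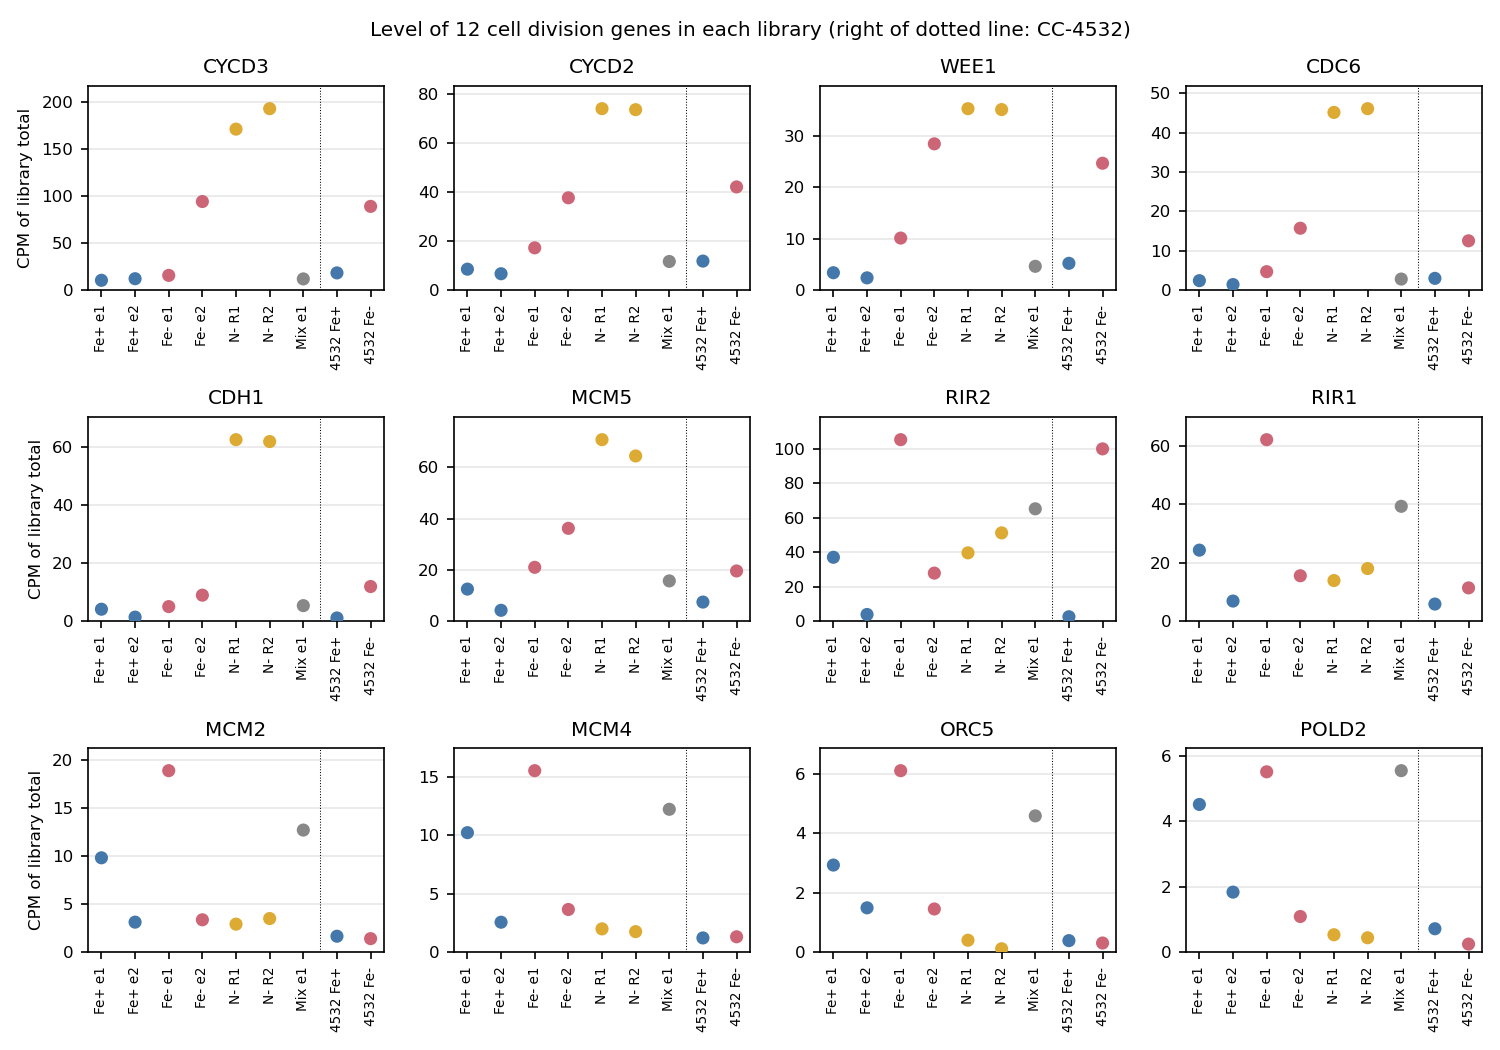
CPM of the library total (vertical axis, from 0, own scale per gene) of 12 genes in the 9 libraries (horizontal axis, e1 and e2 for the experiments, 1 point per library; blue Fe+, red Fe−, yellow N−, grey Mix). CYCD3, CYCD2, WEE1 and CDC6 are highest in N− and then in Fe− of experiment 2 or of CC-4532, while RIR1, MCM2 and MCM4 are highest in Fe− of experiment 1, and ORC5 and POLD2 are lowest in N− and CC-4532.

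The first question was which members differed between iron-starved and iron-replete CC-5390. The typical member was higher without iron: the median log2 fold change over 96 members with enough counts was 0.68, against −0.030 over all 14588 genes tested, and 78 of the 96 (81.2%) lay above 0, against 48.7% of all genes. Most members lay above 0 in origin licensing (14 of 14, median log2 fold change 0.67) and in the DNA polymerases (6 of 7, median 1.00). The same held for cohesin, condensin and the SMC5/6 complex (11 of 13, median 1.13). It also held for the clamp and its loaders (7 of 9) and helicase activation (5 of 7), with lower medians of 0.20 and 0.18. With the experiment as a block (below), the medians of the clamp and its loaders and of helicase activation were 0.35 and 0.52. Those of origin licensing, the DNA polymerases and the cohesin group were then 0.59, 0.98 and 1.09. No member passed the test, however. With 2 libraries a group, the quasi-likelihood test of edgeR with Benjamini-Hochberg adjustment called 0 of the 96 in either direction, as it called 0% of all genes. At an unadjusted p under 0.05 there were 15 members, 14 of them higher (6.64% of all genes higher and 5.55% lower).

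With the experiment as a block, which pairs the libraries that share a pre-culture, 6 members rose and 0 fell, against 4.32% and 3.87% of all genes. They were E2FR1, WEE1, CDC6, POLE1, SMC5B and RIR2. DESeq2 without the block called 3 of them, E2FR1, WEE1 and CDC6, and 0 lower (1.73% and 1.5% of all genes). E2FR1 (Cre13.g572950, chromosome 13, 1545378 to 1551709), an E2F-related gene, stood at 1.06 and 0.585 CPM in Fe+ and at 4.82 and 7.84 CPM in Fe−. It was 11.6 and 6.43 CPM in N−, 3.11 CPM in Mix, and 0.383 and 5.39 CPM in Fe+ and Fe− of CC-4532. Every starved library was therefore above every Fe+ library for this gene, and its log2 fold change in CC-5390 was 3.03 ± 0.67 (SE, edgeR, adjusted p = 0.21) without the block and 2.81 with it (adjusted p = 0.0024).

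WEE1 (Cre07.g355250), the kinase that restrains CDKs, was at 3.37 and 2.37 CPM in Fe+, 10.1 and 28.5 CPM in Fe−, 35.4 and 35.2 CPM in N−, and 4.62 CPM in Mix. In CC-4532 it was at 5.20 CPM in Fe+ and 24.7 CPM in Fe−. All starved libraries were above all Fe+ libraries, and the edgeR log2 fold change without iron was 2.89 ± 0.81 (SE, adjusted p = 0.29), or 2.45 with the block (adjusted p = 0.017). CDC6 (Cre06.g292850), which loads the MCM helicase, had 2.37 and 1.38 CPM in Fe+, 4.66 and 15.7 CPM in Fe−, 45.1 and 46.1 CPM in N−, and 2.78 CPM in Mix. CC-4532 held 2.96 CPM of it in Fe+ and 12.5 CPM in Fe−. The groups again did not overlap, with a log2 fold change of 2.63 ± 0.82 (SE, edgeR, adjusted p = 0.29) and of 2.10 with the block (adjusted p = 0.040). For both genes the ratio was larger in experiment 2 than in experiment 1.

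RIR2 (Cre12.g491050, chromosome 12, 1047286 to 1050705), the small subunit of ribonucleotide reductase, behaved differently. It was at 37.0 and 3.77 CPM in Fe+, 105 and 27.8 CPM in Fe−, 39.6 and 51.2 CPM in N−, 65.2 CPM in Mix, and 2.46 and 100 CPM in Fe+ and Fe− of CC-4532. Fe− was above Fe+ within each experiment, but the Fe+ library of experiment 1 was above the Fe− library of experiment 2. Its log2 fold change was thus 1.62 ± 0.88 without the block (SE, edgeR, adjusted p = 0.49) and 2.05 with it (adjusted p = 0.028). RIR1, the large subunit, followed the same order in CC-5390 (24.3 and 6.83 CPM in Fe+, 62.2 and 15.5 CPM in Fe−) and passed neither fit of edgeR (log2 fold change 1.12 ± 0.70 SE, adjusted p = 0.54, and adjusted p = 0.19 with the block). POLE1, the catalytic subunit of DNA polymerase epsilon, had 2.43 and 1.59 CPM in Fe+ against 8.48 and 6.73 CPM in Fe−, and SMC5B, a chromosome maintenance protein, 2.40 and 2.18 CPM against 6.81 and 9.65 CPM. Neither overlapped between the groups (with the block, log2 fold changes of 1.80 and 1.69, adjusted p = 0.020 and adjusted p = 0.032 by edgeR).

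By level alone, both Fe− libraries were above both Fe+ libraries in 33 of the 98 members with at least 20 UMIs (23.2% of all genes) and below them in 1 (9.42% of all genes). The member below was RDP5 (Cre05.g247450), for which no role is given here, at 51.0 and 22.6 CPM in Fe+ and 14 and 10.1 CPM in Fe− (log2 fold change −1.65, edgeR adjusted p = 0.34). PCNA (Cre12.g515850), the sliding clamp, was at 51.3 and 4.92 CPM in Fe+ and at 50.2 and 12.6 CPM in Fe−, so that its 2 Fe+ libraries differed more than its conditions (log2 fold change 0.066, edgeR adjusted p = 0.99). GINS1 was at 5.80 and 0.957 CPM in Fe+ and 4.25 and 0.458 CPM in Fe−, lower without iron in each experiment, with a log2 fold change of −0.77 (adjusted p = 0.73 by edgeR).

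Experiments 1 and 2 differed in which members stood highest over Fe+. Per experiment, the median log2 CPM ratio of Fe− over Fe+ was 0.79 and 0.78 over 98 members (0.21 and 0.012 over all genes), and 68 members were higher and 8 lower in both. Across the 98 genes, which share their libraries, Pearson's r of the ratios was 0.387, against 0.508 across 15370 genes. CYCD3 (Cre06.g284350), a D-type cyclin of the class that acts with CDKs before DNA synthesis, is an example of a larger ratio in experiment 2. Its levels were 10.3 and 12 CPM in Fe+, 15.5 and 94.1 CPM in Fe−, 171 and 193 CPM in N−, and 11.8 CPM in Mix. CC-4532 held 18.2 CPM in Fe+ and 89.0 CPM in Fe−. The log2 fold change without iron, 2.45 ± 1.02 (SE, edgeR, adjusted p = 0.38), was −0.094 when the Fe− library of experiment 2 was left out. MCM2, a helicase subunit, went the other way: it was at 9.82 CPM in Fe+ and 18.9 CPM in Fe− of experiment 1, and at 3.11 and 3.36 CPM in experiment 2.

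**Figure D2:**
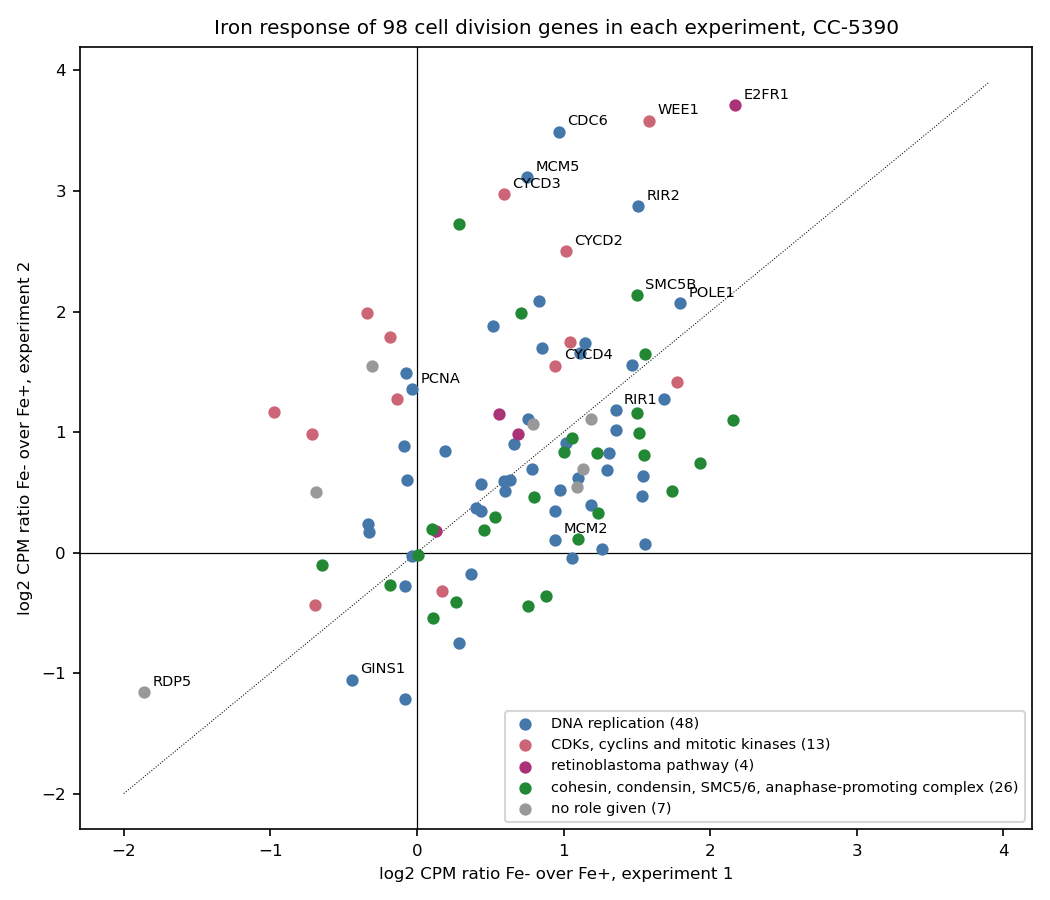
Log2 CPM ratio of Fe− over Fe+ in experiment 1 (horizontal) and experiment 2 (vertical) for 98 members of CC-5390, 1 point per gene, coloured by role, with the line of equal ratios dotted. Of these genes 68 lie above 0 on both axes, CDC6, MCM5 and CYCD3 lie far above the dotted line, MCM2 below it, and RDP5 stands alone at the lower left.

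The next comparison asked which members differed between nitrogen-starved and replete CC-5390. The median log2 fold change over 98 members was −0.068, against −0.19 over 15431 genes, and 5 members rose and 4 fell by edgeR's test (6.49% of all genes rose and 6.44% fell), shares that are not above those of all genes. CDH1, CDC6, WEE1, E2FR1 and SMC1 rose, and ORC5, POLD2, RFC5 and RDP5 fell. The CDKs, cyclins and mitotic kinases had a median log2 fold change of 1.27 with 9 of 13 above 0, and the retinoblastoma pathway 0.90 with 4 of 4, whereas helicase activation had −1.58 with 2 of 7 and the clamp and its loaders −0.68 with 1 of 9. With the experiment as a block the last 2 medians were −1.05 and −0.19 (1.07 for CDKs, cyclins and mitotic kinases and 0.84 for the retinoblastoma pathway). Against Fe+ of experiment 2 alone, the median log2 CPM ratios in N− R1 and R2 were −0.40 and 0.54 for helicase activation and 0.46 and 0.89 for the clamp and its loaders. N− is 1 sample in this fit and was assumed to vary like the iron libraries.

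With the experiment as a block, 15 members rose and 5 fell (13.6% and 16.1% of all genes), and DESeq2 called 8 and 7 (9.12% and 9.73% of all genes). At an unadjusted p under 0.05, edgeR had 24 members, 13 of them higher (15.6% of all genes higher and 17% lower). The shares of members that rose were thus close to those of all genes, and the shares that fell were below them. In level, both N− libraries were above both Fe+ libraries in 43 of the 95 members with at least 20 UMIs (46.7% of all genes) and below them in 14 (24.8% of all genes). Scaling by library totals in place of TMM moved the median of all genes from −0.19 to 0.49 and that of the members to 0.52. Under it 8 members rose and 1 fell, against 1538 and 350 of all 15431 genes.

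CDH1 (Cre09.g406851, chromosome 9, 6344739 to 6353251), an activator of the anaphase-promoting complex, was at 4.05 and 1.33 CPM in Fe+, 4.96 and 8.89 CPM in Fe−, 62.4 and 61.8 CPM in N−, and 5.28 CPM in Mix. In CC-4532 it was at 1.04 CPM in Fe+ and 11.9 CPM in Fe−. The N− libraries stood far above every other library, and the log2 fold change was 3.95 ± 0.84 (SE, edgeR, adjusted p = 0.019). CDC6, with the levels given above, changed by 3.95 ± 0.92 on the log2 scale (SE, edgeR, adjusted p = 0.024). These were the 2 genes whose call held under all 14 alternatives. Among the alternatives, the filter at 100 genes and 300 UMIs left out no CC-5390 cell, so it could not change a call. Another counted the technical duplicates as replicates. E2FR1 (2.76 ± 0.72, SE, edgeR adjusted p = 0.032) lost its call in 1 of the 14 and WEE1 (2.93 ± 0.89, SE, edgeR adjusted p = 0.049) in 4. SMC1, a cohesin subunit, at 1.12 and 1.54 CPM in Fe+ and 7.26 and 14.3 CPM in N− (2.27 ± 0.67, SE, edgeR adjusted p = 0.045), lost it in 3.

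Among the members that fell, ORC5 (Cre07.g355200), an origin recognition subunit, had 2.93 and 1.49 CPM in Fe+, 6.11 and 1.45 CPM in Fe−, and 0.396 and 0.109 CPM in N−. POLD2, a subunit of DNA polymerase delta, had 4.52 and 1.83 CPM in Fe+ against 0.528 and 0.436 CPM in N−, and RFC5, a clamp loader subunit, 9.51 and 2.50 CPM against 0.660 and 1.20 CPM. In each case both N− libraries were below both Fe+ libraries of CC-5390. The log2 fold changes were −3.82 ± 1.01, −3.32 ± 0.98 and −3.19 ± 0.96 (SE, edgeR, adjusted p = 0.033, adjusted p = 0.046 and adjusted p = 0.048), and the calls were lost in 2, 3 and 5 of the 14 alternatives. RDP5, at 7.0 and 6.1 CPM in N−, fell by 3.11 on the log2 scale (edgeR adjusted p = 0.046, lost in 5 alternatives). RNaseH2A, which removes RNA from DNA strands, had 0 UMIs in N− and 54 in both Fe+ libraries together. It was at 1.31 and 0.319 CPM in Fe+, against a floor of 0.179 CPM for 3 counts over both N− libraries. Against this floor it was at least 4.33-fold lower than in the Fe+ libraries summed. The bound is smaller against Fe+ of experiment 2 alone. ORC5 and WEE1 are neighbours on chromosome 7 (6057666 to 6063027 and 6063030 to 6066795, assembly v5.5) with 2 bases between their annotated ends, and they moved in opposite directions in N−; whether the counting used strand is not given in the sources used here.

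Of the 4 D-type cyclins, CYCD2 and CYCD3 passed edgeR's test in N− with the block and not without it. CYCD2 was at 8.51 and 6.65 CPM in Fe+, 17.2 and 37.7 CPM in Fe−, and 74.2 and 73.8 CPM in N−, and was at 11.8 and 42.2 CPM in Fe+ and Fe− of CC-4532. All starved libraries were above all Fe+ libraries. In N− its log2 fold change was 2.58 (edgeR adjusted p = 0.069, and adjusted p = 0.036 with the block) and that of CYCD3 3.27 (edgeR adjusted p = 0.070, and adjusted p = 0.027 with the block). CYCD1, at 2.12 and 2.87 CPM in Fe+ and 10.2 and 10.6 CPM in N−, and CYCD4, at 1.15 and 3.06 CPM and 14.3 and 9.37 CPM, had log2 fold changes of 1.27 and 1.58 and passed neither fit.

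Subunits of the MCM2 to MCM7 helicase, which work as 1 ring, did not move alike in N−. MCM5 (Cre01.g023150) was at 12.5 and 4.17 CPM in Fe+, 21.0 and 36.2 CPM in Fe−, and 70.9 and 64.5 CPM in N−. MCM4 was at 10.2 and 2.55 CPM in Fe+, 15.5 and 3.64 CPM in Fe−, and 1.98 and 1.74 CPM in N−. In N− the former was above and the latter below both Fe+ libraries of CC-5390. The log2 fold changes were 2.44 for MCM5, 1.43 for MCM3, 1.03 for MCM6, −0.46 for MCM7, −1.57 for MCM2 and −2.32 for MCM4. None passed edgeR's test (adjusted p = 0.077 for MCM5 and adjusted p = 0.11 for MCM4), and with the block MCM5, MCM3 and MCM6 rose (log2 fold change 2.21 for MCM5, adjusted p = 0.024). MCM7 changed sign with the block and with library totals. Against Fe+ of experiment 2 alone, the log2 CPM ratios in N− R1 and R2 were 4.08 and 3.95 for MCM5. They were 3.47 and 3.32 for MCM3, 2.67 and 2.80 for MCM6, and 1.25 and 1.62 for MCM7. For MCM2 they were −0.073 and 0.18, and for MCM4 −0.33 and −0.51. Other members called with the block were CYCD2, CYCD3, RIR2, RFA1, NSE4, RDP2 and POLA1, all higher, and RNaseH2A, lower.

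**Figure D3:**
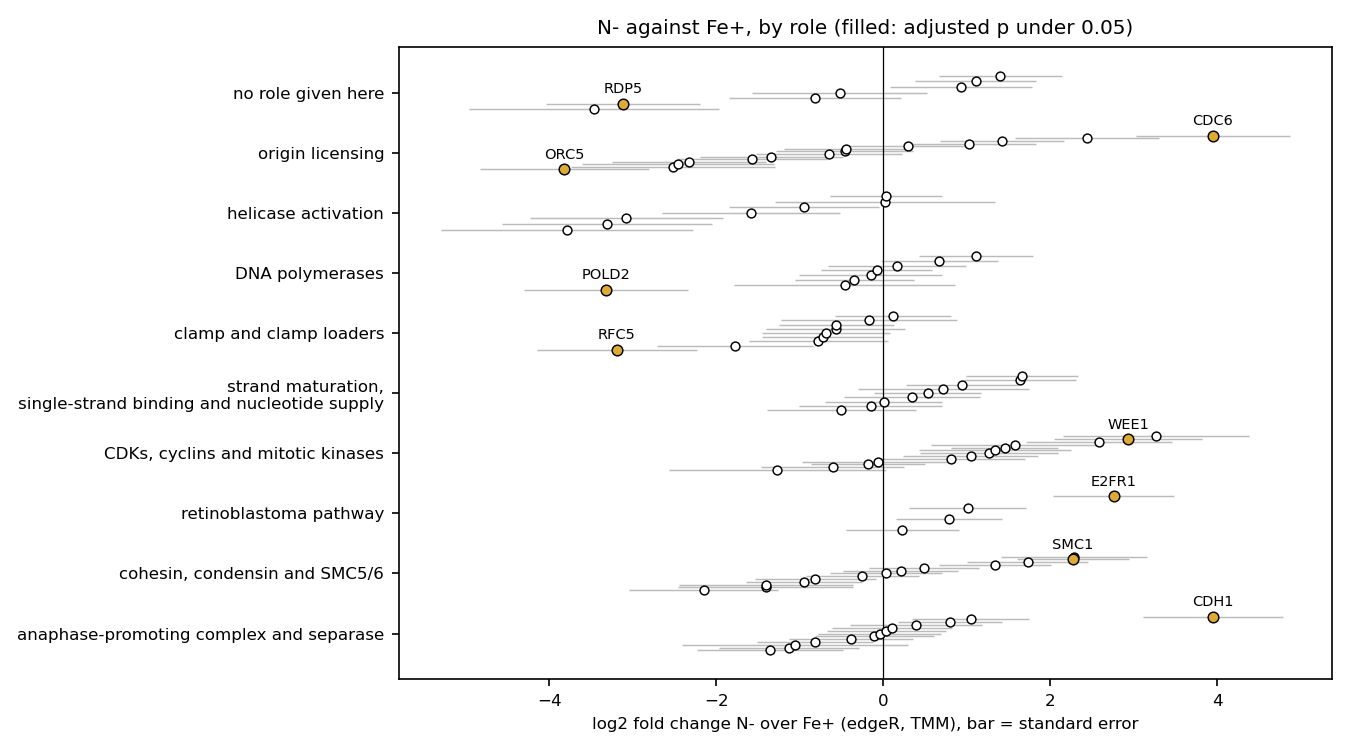
Log2 fold change of N− over Fe+ in CC-5390 (horizontal, edgeR with TMM scaling, bars are 1 SE) for members by role (rows), leaving out the 2 genes with 0 UMIs in N−; filled points are the 9 genes at an adjusted p under 0.05. The 5 that rose lie in origin licensing, kinases and cyclins, the retinoblastoma pathway, cohesin and the anaphase-promoting complex, and helicase activation lies mostly below 0.

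The remaining regulators did not share 1 order of levels. CKS1 was at 56.3 and 8.80 CPM in Fe+, 44.4 and 35 CPM in Fe−, 119 and 112 CPM in N−, and 13.6 and 32.8 CPM in Fe+ and Fe− of CC-4532. CDKA1, the main CDK of the entry into division, was at 27.7 and 7.26 CPM in Fe+, 16.8 and 14.4 CPM in Fe−, and 48.6 and 55.8 CPM in N−. N− stood above every other CC-5390 library for both, and neither passed edgeR's test in N− (log2 fold changes 1.34 and 1.05, adjusted p = 0.33 and adjusted p = 0.38) or in Fe−. The retinoblastoma protein gene MAT3 was at 11.1 and 5.58 CPM in Fe+, 16.4 and 12.4 CPM in Fe−, and 24.3 and 27.6 CPM in N−, with all starved libraries of CC-5390 above both Fe+ libraries (log2 fold change 0.73 without iron and 1.01 in N−, edgeR adjusted p = 0.61 and adjusted p = 0.34). CDKB1, the mitotic CDK, and the cyclin CYCA1 had another order: they were at 12.7 and 2.02 CPM and at 16 and 1.73 CPM in Fe+, and at 7.13 and 6.54 CPM and 12.3 and 11.2 CPM in N−. For both, N− lay between the Fe+ libraries. The same held for CDC20, the other activator of the anaphase-promoting complex, which was at 7.39 and 1.70 CPM in Fe+ and at 1.98 and 3.05 CPM in N−, whereas CDH1 in N− was above every other library. Against Fe+ of experiment 2 alone, however, the log2 CPM ratios in N− R1 and R2 were 1.82 and 1.70 for CDKB1. They were 2.83 and 2.70 for CYCA1 and 0.25 and 0.86 for CDC20.

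Some members were too low for a test. POLA4, APC8 and RNaseH2A_2 did not pass the filter on low counts in Fe− against Fe+, and RNaseH2A_2 did not in N−. RNaseH2A_2 was listed at 0.0623 and 0.0797 CPM in Fe+ and had 0 UMIs in both N− libraries, so that no fold is given. With RNaseH2A set at its bound, the median of the members in N− was still −0.068.

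In the walled strain CC-4532, iron starvation was measured with 1 library a condition, and no test was run, so that intervals cover counting error only. Of 76 members with at least 20 UMIs, 34 were over 2-fold higher without iron (34.4% of all genes) and 6 over 2-fold lower (15.3%). With TMM factors in place of library totals, 23 were over 2-fold higher and 8 lower, against 3372 and 2854 of all 12621 genes. The median log2 ratio was 0.88, against 0.40 over all genes, and with TMM factors 0.53 against 0.05. By library totals, 9 of 11 CDKs, cyclins and mitotic kinases were over 2-fold higher, and 3 of 9 clamp and loader genes were. RIR2 had 45 UMIs in Fe+ and 3306 in Fe−, so that its level was 40.6 times as high without iron (exact 95% interval 30.3 to 55.8), while its partner RIR1 was at 5.80 and 11.3 CPM. E2FR1 had a ratio of 14.1 (6.68 to 35.5), CDH1 of 11.4 (7.21 to 19.1), CYCD3 of 4.9 (4.37 to 5.5), WEE1 of 4.75 (3.84 to 5.94) and CDC6 of 4.23 (3.18 to 5.72). MCM2, at a ratio of 0.848 (0.524 to 1.39), was not distinguishable between the libraries at this depth, and RDP5 was lower at 0.478 (0.364 to 0.628). E2FR1, WEE1, CDC6, CYCD2 and RDP5 thus had the same direction in both strains and in N−. They were not alone in this, since by CPM ratios CYCD3, MCM3, MCM5, SMC5A, CDH1 and further members did too. The share over all genes was not counted.

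The Mix library, an equal mixture of the cells of experiment 1, lay between its Fe+ and Fe− libraries for 80 of 98 members (81.6%, against 74.9% of all genes). TOP2, for example, was at 7.26 CPM in Fe+, 11.7 CPM in Mix and 18.6 CPM in Fe−.

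Single cells show how the members' transcripts were spread. To compare libraries of unequal depth, every cell was thinned to 1000 UMIs, which left out 59 to 1505 cells a library. That was 34.7% of the cells in N− R1 and 16.2% in N− R2, against 1.05% to 13.7% in the other libraries. The N− shares below thus cover only the deeper cells of these libraries. In Fe− of experiment 1, 348 of 9511 cells had at least 5 members detected, 3.66% (95% Clopper-Pearson interval 3.29 to 4.06), against 0.187% if the genes were detected independently of each other. These cells held 29.0% of the list's UMIs in that library. The shares were 1.04% in Fe+ of experiment 1 (0.0289% under independence) and 1.78% in Mix (0.0651%). In experiment 2 they were 0.116% in Fe+, 0.358% in Fe−, and 0.642% and 1.1% in N−, where independence gives 0.268% and 0.313%. CC-4532 had 0.0663% in Fe+ and 0.176% in Fe−. Detection of at least 1 member was most common in N− (61.0% and 60.3% of cells), then in Fe− of experiment 1 (44.8%), Mix (41.9%), Fe− of experiment 2 (41.7%) and Fe+ of experiment 1 (39.3%). It was lower in Fe− of CC-4532 (32.9%) and in Fe+ of experiment 2 (19.0%) and of CC-4532 (12.8%).

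In CPM of the library total, the N− libraries therefore had the highest summed level of the list, which was not so after TMM scaling. Their share of cells with many members was smaller than in Fe− of experiment 1, a library of the other experiment. Within experiment 2 it was the largest, at 0.642% and 1.1% against 0.358% in Fe− and 0.116% in Fe+ of CC-5390. The intervals of N− R1 (0.352 to 1.08) and Fe− (0.240 to 0.513) overlapped. Without thinning, the shares with at least 5 members were 6.45% and 1.83% in Fe+, 15.4% and 19.95% in Fe−, 12.7% and 32.2% in N−, 10.2% in Mix, and 3.54% and 5.93% in CC-4532 of cells, so that Fe− of experiment 2 and N− R2 then stood above Fe− of experiment 1. The cells with at least 5 members in Fe− of experiment 1 had a median of 2505 UMIs before thinning, against 2960 over all thinned cells of that library. They were deeper than that library-wide median in Fe+ of both experiments (4231 against 2332 and 3460 against 2252 UMIs), in Mix (3514 against 2549), in N− R1 and R2 (3156 against 2206 and 9876 against 3400) and in Fe− of CC-4532 (3597 against 2976). In Fe− of experiment 2 and Fe+ of CC-4532 they were not (6468 against 6509 and 5112 against 5521 UMIs). No doublet caller was run, and the part of doublets in these cells was not tested. Free RNA in droplets was not removed and no cells that should lack these transcripts could be set apart, so its part in single detections was not tested.

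**Figure D4:**
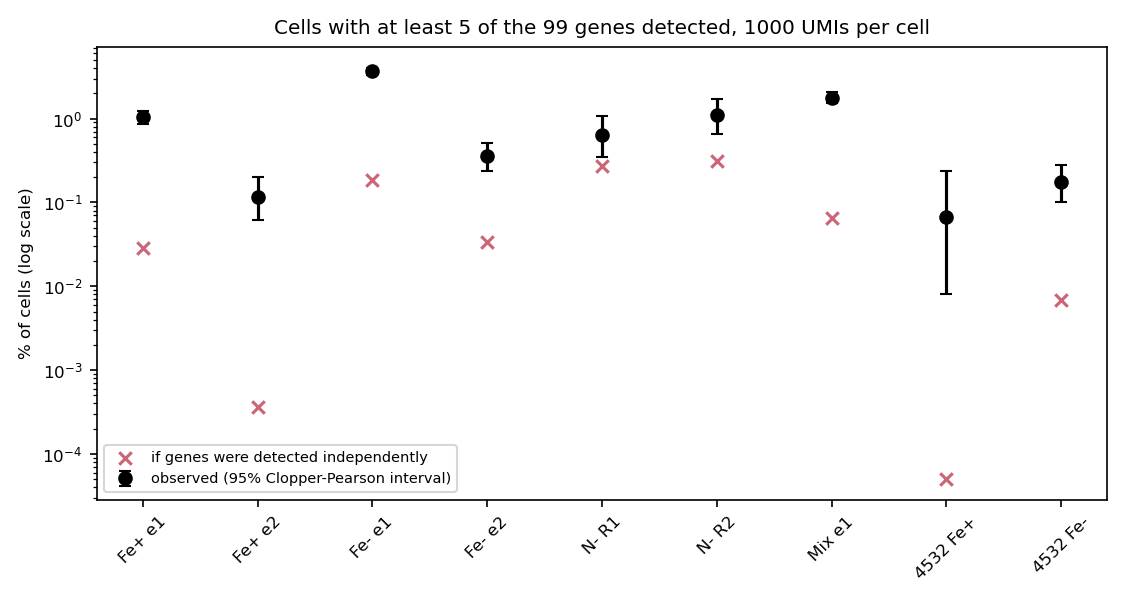
Share of cells with at least 5 of the 99 genes detected after thinning to 1000 UMIs (vertical, log scale) in each library (horizontal). Black points with 95% Clopper-Pearson intervals are observed shares and red crosses are the shares if genes were detected independently; Fe− of experiment 1 is highest at 3.66%, and the N− libraries come closest to their crosses.

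Pairs of members were then compared in the same thinned cells, as the number of cells with both genes over the number expected from their separate shares, for pairs with at least 5 cells expected. The median ratio over 104 pairs was 2.64 in Fe− of experiment 1, and 76 pairs reached 2, against a median of 1.01 over all gene pairs. Pairs of replication genes had a median of 3.42 over 48 pairs. RIR1 and TOP2 were found together in 45 cells where 7.13 were expected, a ratio of 6.31 (95% Poisson interval 4.60 to 8.44), and RIR1 and RIR2 in 146 cells where 35.9 were expected. RIR2 and SMC6B had the lowest ratio, 0.311, from 2 cells where 6.43 were expected, with an interval that includes 1 (0.0377 to 1.12). In Fe+ of experiment 1 the median was 1.94 over 40 pairs, and in Mix it was 1.84 over 48, with 3.13 over 18 pairs of replication genes.

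The other libraries had lower ratios. In Fe− of experiment 2 the median was 1.45 over 41 pairs, in N− it was 1.21 over 28 and 1.25 over 21, and in Fe− of CC-4532 it was 1.66 over 31, while all gene pairs had medians of 1.01, 1.04, 1.08 and 1.13. CYCD3 and CKS1 were found together in Fe− of experiment 2 in 55 cells where 25.6 were expected (2.15), and CYCD3 and RIR2 in 14 where 18.5 were expected (0.755, 95% Poisson interval 0.413 to 1.27). In N− R2, MCM5 and CYCD3 had a ratio of 1.68 (1.11 to 2.45). No pair reached the minimum in Fe+ of experiment 2 or of CC-4532. The pairs that could be counted differ between libraries, since the minimum depends on the levels.

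**Figure D5:**
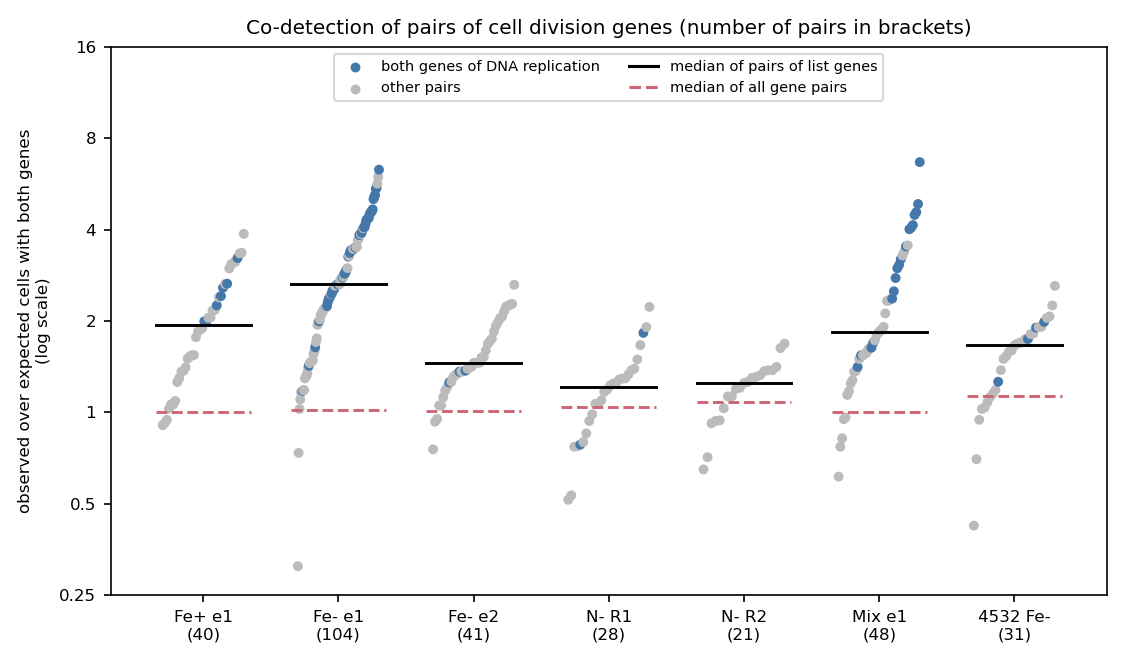
Observed over expected number of cells with both genes (vertical, log scale) for pairs of members in the 7 libraries with countable pairs (horizontal, number of pairs in brackets); blue points are pairs of DNA replication genes, black lines the median of the pairs and dashed red lines the median of all gene pairs. The blue points of Fe− in experiment 1 and of Mix lie highest, and the medians of N− are 1.21 and 1.25.

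The company a transcript keeps also differed from gene to gene. Of the cells with a given member in Fe− of experiment 1, a median of 28.1% (53 members with at least 50 such cells) held at least 4 other members. Among the cells without the gene in question, 2.68% to 5.55% held at least 4 members. For RFA3, a subunit of the single-strand binding complex, it was 59.8%, for the condensin gene SMC2 54.5%, for POLA1 49.4%, for TOP2 48.7%, for MCM2 37.6%, and for RIR2 28.1%. At the other end were CYCD3 at 11.6% (19 of 164 cells), against 5.39% of the cells without it, SMC6B at 2.56% and SMC5A at 1.52% (1 of 66 cells, 95% Clopper-Pearson interval 0.0384 to 8.16, against 5.55% of the cells without it). Few cells with these transcripts held many others in experiment 2. There, 12 of 804 cells with CYCD3 and 3 of 187 cells with RIR2 in Fe− held 4 other members, with a median of 2.24% over 26 members. Among cells without the gene it was 0.917% for CYCD3 and 1.16% for RIR2, within the intervals of the shares with the gene (0.774 to 2.59 and 0.332 to 4.62). In Fe− of CC-4532 it was 10 of 601 cells with RIR2 and 6 of 726 cells with CYCD3, with a median of 1.29% over 16 members. There, cells without the gene had 0.331% for RIR2, under the interval of its share (0.801 to 3.04), and 0.526% for CYCD3, within it (0.304 to 1.79). In N− the medians were 3.37% and 5.37%, against 1.54% to 2.70% and 2.59% to 3.55% of the cells without the gene.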

How the data were processed

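The authors aligned reads to the Chlamydomonas v5.5 genome and called cells with Cell Ranger, and the deposited values are UMI counts as they came from that step, not normalized. All deposited cells were used, without a doublet caller. Counts were summed per gene and library, since cells are not replicates, and tested with the quasi-likelihood test of edgeR 4.0.16 (filterByExpr, TMM, Benjamini-Hochberg over all genes tested, threshold 0.05) in R 4.3.3, and with DESeq2 1.42.0 as an alternative. CC-4532, with 1 library a condition, was described by CPM ratios with 0.5 added to each count. Cells were thinned and counted in Python 3.11.15. The steps were tested on simulated data. For the edgeR test these had a smaller spread than the libraries and no difference between experiments. They therefore do not show how the test behaves at the spread of these libraries.

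Fe− and Fe+ libraries of an experiment shared a pre-culture and a run label; their deviations from the group means correlated at 0.501 over 14588 genes, and the experiment was used as a block beside the main fit. Gene symbols follow the study's list, and gene positions the RefSeq table of assembly v5.5. The roles were assigned to these symbols for this report and are not the study's. Genes named with values were a set of core members, the members with the largest and smallest changes in each comparison among those with at least 50 UMIs, and all members called; others were named after their values were seen. Members, lists and tests were chosen with earlier results of these data known. Alternatives covered scaling, the filter on low counts, cell filters, thinning and leaving out each library. Promoter and protein sequences and gamete, histone and plastid division genes were not analysed here.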

Additional observations from a re-analysis of the deposited data

Results flagged for a closer look

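APC1, a subunit of the anaphase-promoting complex, went in opposite directions in the strains. In CC-5390 its log2 CPM ratio of Fe− over Fe+ was 1.00 in experiment 1 and 0.84 in experiment 2 (from 5.08 to 10.2 CPM and from 1.65 to 2.96 CPM), while in CC-4532 it was −1.15 (from 1.75 to 0.787 CPM, 32 and 26 UMIs), or −1.50 with TMM factors. The difference between the strains was not tested.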

How the results depend on the processing

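With the replicate block (experiment), 6 members were called in Fe− against Fe+ and 20 in N− against Fe+, in place of 0 and 9; the member medians were 0.67 and 0.23. DESeq2 called 3 (median 0.70) and 15. RLE factors gave an Fe median of 0.74 and 5 N− calls, library totals medians of 0.85 and 0.52, no filter on low counts an Fe median of 0.64 and 14 N− calls, and leaving out the 5% of cells with most UMIs an Fe median of 0.81. With the N− replicates as separate samples 23 members were called. This setting counts what the study calls technical duplicates as replicates. Of 96 members 13 rose and 10 fell in it, against 2518 and 3182 of all 15008 genes. Both shares of the members were below those of all genes. Leaving out 1 library gave 0 to 3 calls (3 without Fe− of experiment 1) and medians of 0.43 to 1.04 in Fe−, and 5 to 16 calls (5 without Fe+ of experiment 1 or N− R2, 15 without Fe− of experiment 1, 16 without Fe+ of experiment 2) and medians of −0.27 to 0.29 in N−. The CC-4532 median was 0.61 at 5 UMIs, 1.15 at 50 UMIs, 0.53 with TMM factors and 0.99 without the deepest 5% of cells. In Fe− of experiment 1, the share of cells was 9.43% for at least 3 members, 0.347% for at least 10, 0.672% at 500 UMIs and 15.4% without thinning, and the co-detection median was 3.11 at 500 UMIs and 2.95 without thinning.

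Some single genes changed sign. In Fe−, leaving out 1 library gave log2 fold changes of −2.37 to 0.50 for GINS1 (0.50 without Fe+ of experiment 1, 0.037 without Fe− of experiment 2), −0.66 to 1.98 for PCNA (−0.61 without Fe− of experiment 1, −0.66 without Fe+ of experiment 2) and −0.094 to 3.31 for CYCD3. In N−, it gave −0.99 to 0.45 for MCM7, −0.95 to 1.79 for PCNA (0.21 without N− R2) and −0.057 to 2.59 for RIR2, each highest without Fe+ of experiment 1 and lowest without Fe+ of experiment 2. MCM7 in N− was 0.35 with the block and 0.072 with library totals, and PCNA 1.33 with the block, 0.28 with totals and 0.031 without the deepest cells. The cause was not tested. The library totals were chosen after seeing the data. Depth limits the low members most: 3 counts correspond to 0.0572 to 0.396 CPM, highest in N−.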

Other observations

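Likeness to PCNA over the 9 libraries was measured by Pearson correlation of log2(CPM + 1) among 4656 genes with at least 10 CPM on average. The 10 genes most like it had r of 0.971 to 0.988, and none was a member of the list. Most members, however, were below 10 CPM on average and were not among the genes compared. Besides ORC5 and WEE1, 4 pairs of members are neighbours on a chromosome: PCNA and TOPBP1, SMC6A and SMC6B, RDP5 and RDP4, and GINS3 and RFC4. In Fe− against Fe+ of CC-5390, SMC6A had a log2 fold change of 1.06 and SMC6B of 0.03.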
